A study of Mus musculus with 6 samples.

Results

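Tendon and ligament formation is followed here through 6 of the 23420 genes counted in mouse palate libraries: the transcription factor genes Scx, Mkx and Egr2, and the genes Tnmd, Thbs4 and Htra3 for proteins at or outside the cell surface. They were chosen by name, with earlier results of these data known, from a larger number of genes with tendon roles. All 6 passed the filter on low counts. RNA sequencing compared the future anterior hard palate of C57BL/6 mouse embryos at E14.5 between a mutant group of genotype Shox2Cre/-;Nkx2.5F/F and a control group of genotype Shox2Cre/+;Nkx2.5F/F, with 3 libraries in each. Both groups carried 1 Cre allele of Shox2 and homozygous floxed Nkx2.5, so the controls, although titled WT, also carried the Cre and the floxed alleles, and Cre acts where the Shox2 locus is active. Whether each library came from 1 embryo or from several is not stated in the labels. All p-values therefore reflect only the scatter among these 6 libraries, which may be technical.

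Tendons and ligaments are bundles of collagen fibrils laid down by fibroblasts that, in the head, come largely from the neural crest. Scleraxis, the bHLH factor encoded by Scx, marks their progenitors and is needed for force-bearing tendons in mice. Mohawk, a TALE homeodomain protein encoded by Mkx, and the zinc finger factors Egr1 and Egr2 promote collagen production in tendon cells. Tenomodulin, encoded by Tnmd, is a membrane glycoprotein of maturing tendon that depends on scleraxis in mice. Thrombospondin 4, encoded by Thbs4, is a secreted multimeric glycoprotein of tendon matrix and of the junction between muscle and tendon, and Htra3 encodes a secreted serine protease that can bind TGF-beta family ligands.

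The DNA just before 1 RefSeq start of each of 3 genes is shown because these are the members that passed the test below. RefSeq promoter windows (GRCm38.p6) were held for 4 of the 6 members, namely Tnmd, Thbs4, Egr2 and Htra3. Each run below gives the 250 bases before the annotated start, 5′ to 3′ on the strand of the gene. Capitals mark an E-box (CANNTG, the core bound by bHLH factors such as scleraxis) or a CArG box (the core bound by serum response factor), both searched on both strands, and the marked motifs do not overlap. The Tnmd window lies at chrX:133850758-133851007 on the plus strand, the Thbs4 window at chr13:92794819-92795068 on the minus strand, and the Egr2 window, the middle one of 5 annotated starts, at chr10:67537619-67537868 on the plus strand.
Tnmd: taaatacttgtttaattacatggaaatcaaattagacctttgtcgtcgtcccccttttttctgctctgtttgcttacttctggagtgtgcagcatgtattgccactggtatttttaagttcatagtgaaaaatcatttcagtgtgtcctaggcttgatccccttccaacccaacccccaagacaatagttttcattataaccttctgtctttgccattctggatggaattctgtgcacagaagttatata
Thbs4: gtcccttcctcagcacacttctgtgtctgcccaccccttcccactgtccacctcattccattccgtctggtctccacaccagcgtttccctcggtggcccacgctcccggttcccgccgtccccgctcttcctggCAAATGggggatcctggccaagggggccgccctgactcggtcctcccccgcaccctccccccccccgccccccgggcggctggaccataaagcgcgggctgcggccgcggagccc
Egr2: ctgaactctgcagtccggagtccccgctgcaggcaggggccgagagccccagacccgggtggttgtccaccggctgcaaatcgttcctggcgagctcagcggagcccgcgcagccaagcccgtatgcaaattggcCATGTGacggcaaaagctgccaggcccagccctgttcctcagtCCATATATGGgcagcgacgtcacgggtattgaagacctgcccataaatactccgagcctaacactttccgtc
The E-box of Thbs4 lies from base -115 to -110 before the start, and that of Egr2 also from -115 to -110. The CArG box of Egr2 lies from -72 to -63. By the gene spans given below, which come from another annotation, this Egr2 window lies inside the gene. The Tnmd window runs past the gene start of that annotation. Motifs in the other Egr2 windows are not given. None of the E-box, CArG box and EGR site (GCGNGGGCG, either strand) letters were in the Tnmd window, and the Htra3 window, which is not shown, held 3 E-boxes. Of 32851 promoter windows of this length, 66.2% held an E-box, 4.7% an EGR site and 1.47% a CArG box.

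Total counts were 52668242 to 53331397 in the mutants and 81950407 to 134813429 in the controls, so depth and genotype coincide. Shox2 was at 5.30, 4.12 and 3.13 CPM (the count scaled to library size with TMM factors) in mutant replicates 1, 2 and 3 and at 88.2, 68.2 and 81.7 CPM in control replicates 1, 2 and 3. Counts of 5 to 50 were even in 99.7% of genes in mutant replicate 1 and in 63.6% to 73% in the other libraries. Libraries correlated across genes at 0.975 to 0.992 within a group, with mutant replicate 1 and control replicate 1 each farther from the other libraries of its group, and no pair agreed within sampling noise. Palatal mesenchyme markers were present in every library, with a summed level of 6192 to 6966 CPM in the mutants and 5790 to 6822 CPM in the controls. Col3a1 alone made up 3638 to 4212 CPM in the mutants and 2908 to 3426 CPM in the controls. By the test given below, 5 of these 11 markers, Shox2 included, were called lower and 0 higher. Their median log2 fold change was -0.33, and 21.7% of all tested genes were called lower. Summed Y-linked genes stood at 199 to 244 CPM in the mutants and at 192, 36.2 and 87.5 CPM in control replicates 1, 2 and 3. Adding the summed Y-linked level to the fit is called the Y-linked covariate below. Within groups that level differed mainly between control replicate 1 and control replicates 2 and 3, and it was partly confounded with genotype. Results with the Y-linked covariate are therefore not read as adjusted for sex.

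Of the 6 genes, 3 were called lower in the mutant palate and none was called higher at an adjusted p under 0.05. Tnmd, Thbs4 and Egr2 were 5.65-, 5.35- and 5.48-fold lower, while Scx, Mkx and Htra3 did not pass. The same test called 45.8% of all 16604 tested genes, 21.7% lower and 24.1% higher. Calls with a log2 fold change under -1 made up 3.39% of tested genes and those under -2, as all 3 of these were, 1.37%. Against a 1.5-fold change the same 3 members were called lower, as were 3.04% of tested genes. The groups did not overlap for 5 of the 6 members and for 58.9% of tested genes. The median log2 fold change was -1.85 over the 6 members and 0 over all tested genes. Because the members were chosen with earlier results of these data known, the shares over all genes do not test them as a set. In bulk tissue, fewer cells of a type and less RNA per cell cannot be told apart.

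**Figure D1:**
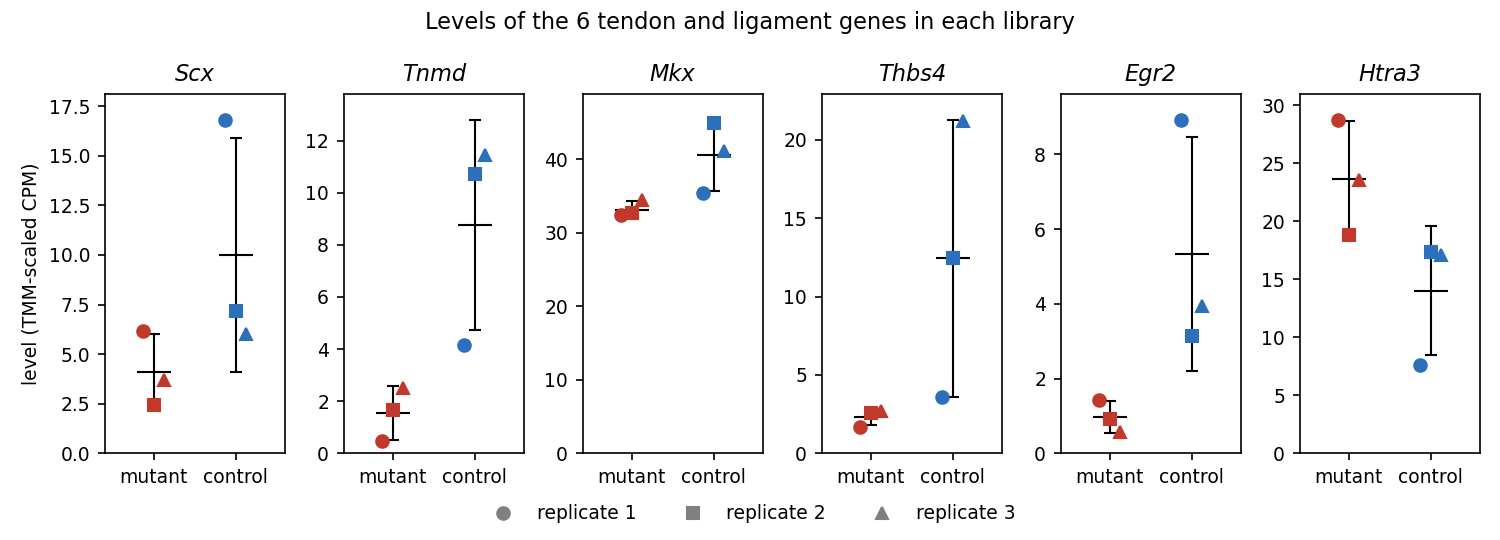
Level of each gene in TMM-scaled CPM (y axis, from 0) in the mutant libraries (left, red) and the control libraries (right, blue), with the mean (bar) and SD (whiskers, n = 3). Tnmd, Thbs4 and Egr2 sit lower in all 3 mutants than in any control, while Htra3 sits higher and the Scx groups touch.

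Scx, the gene of the tendon progenitor factor, lies on chromosome 15 from 76457452 to 76459458, plus strand (GENCODE M21, GRCm38). Its level was 6.18, 2.44 and 3.69 CPM in mutant replicates 1, 2 and 3, against 16.8, 7.18 and 6.03 CPM in control replicates 1, 2 and 3. Control replicate 1 was far above all other libraries, and mutant replicate 1 lay just above control replicate 3, so the groups overlapped. The mean was 4.10 ± 1.90 CPM in mutants and 10.003 ± 5.91 CPM in controls (SD, n = 3 each). The log2 fold change of -1.28 (SE 0.48) missed the threshold, with an edgeR adjusted p of 0.0618. It passed without mutant replicate 1 (-1.71, adjusted p = 0.0384), without control replicate 3 (-1.55, adjusted p = 0.0458), without replicate 1 of both groups (-1.12, adjusted p = 0.00845), with the Y-linked covariate (-1.78, adjusted p = 0.044) and by DESeq2 (-1.28, adjusted p = 0.00825), and it was -0.7 without control replicate 1 (adjusted p = 0.173). The whole Scx gene sits within the span of Bop1, a ribosome biogenesis gene on the opposite strand, without sharing exon bases in that annotation. Bop1 stood at 55.2 to 63.5 CPM in mutants and 63.7 to 71.7 CPM in controls and did not pass (-0.18, SE 0.08, edgeR adjusted p = 0.11). The sources used here do not state the strand setting of the counting, so reads of Bop1 introns within Scx cannot be told apart from Scx reads.

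Skeletal muscle, to which tendons attach, was represented at a low level that was uneven between libraries. The 18 muscle markers summed to 16.9, 10.8 and 13.4 CPM in mutant replicates 1, 2 and 3, against 90.5, 18.6 and 36.1 CPM in control replicates 1, 2 and 3. Of the 15 tested, 9 were lower and none higher. That count rested on single libraries and on the method: it was 2 without mutant replicate 2, 3 without mutant replicate 3, 6 without mutant replicate 1 or control replicate 1, 4 against a 1.5-fold change, 1 with limma-voom and 14 of 18 by DESeq2. The count rose to 12 without control replicate 2 and to 13 with the Y-linked covariate. Myf5, Myf6 and Ckm had no counts in any mutant, against 44, 4 and 10 counts in the controls together. Myf6 and Ckm were also at 0 in 1 control each, so the lack of mutant counts says little for them. Control replicate 1 was thus highest for muscle markers as well as for Scx and Egr2, and the part of muscle in the tendon gene results was not tested.

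Mkx, the gene of mohawk, was the steadiest member and lies on chromosome 18. It measured 32.4, 32.7 and 34.5 CPM in mutant replicates 1, 2 and 3, against 35.4, 45.0 and 41.1 CPM in control replicates 1, 2 and 3. All mutants lay below all controls, as for 29.2% of tested genes, but by a narrow gap. The mean of 33.2 ± 1.14 CPM in mutants was 1.22-fold below the 40.5 ± 4.81 CPM in controls (SD, n = 3 each). The log2 fold change was -0.29 (SE 0.10), with an edgeR adjusted p of 0.0515. It passed by DESeq2 (adjusted p = 0.0385), with counts thinned to the smallest library total (adjusted p = 0.0431), without control replicate 1 (-0.39, adjusted p = 0.00983) and without replicate 1 of both groups (-0.37, adjusted p = 0.00754), and with the Y-linked covariate it was -0.09 (adjusted p = 0.533).

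Egr2, whose product also patterns the hindbrain and drives myelination by Schwann cells, lies on chromosome 10 from 67535475 to 67542188, plus strand. It measured 1.42, 0.925 and 0.577 CPM in mutant replicates 1, 2 and 3, against 8.92, 3.14 and 3.95 CPM in control replicates 1, 2 and 3. Every mutant was below every control, with control replicate 1 more than double the other controls. The mean was 0.973 ± 0.422 CPM in mutants and 5.34 ± 3.13 CPM in controls (SD, n = 3 each). The log2 fold change was -2.45 (SE 0.50), with an edgeR adjusted p of 0.00666. Egr2 was called lower under all 19 other settings tried, from -1.88 without control replicate 1 to -3.12 with the Y-linked covariate.

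Egr2 is also used by glia and macrophages and belongs to the immediate early genes, so those lists are given beside it. Of 14 Schwann cell and glial markers, 3 were higher, 1 was lower and 10 did not pass, with a summed level of 283 to 378 CPM in mutants and 198 to 240 CPM in controls. Sox10, the glial lineage factor, did not pass (0.36, SE 0.25, edgeR adjusted p = 0.266). Of 12 immediate early genes tested, 4 were higher and 1, Egr3, was lower, and the list summed to 384 to 532 CPM in mutants and 305 to 478 CPM in controls. Of 12 macrophage markers, 11 were higher and none lower. The part of these cells, or of the immediate early response, in the lower Egr2 was not tested.

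Tnmd, the gene of the maturing tendon glycoprotein, lies on chromosome X from 133850980 to 133865577, plus strand. It measured 0.472, 1.66 and 2.51 CPM in mutant replicates 1, 2 and 3, against 4.14, 10.7 and 11.4 CPM in control replicates 1, 2 and 3. All mutants were below all controls, and replicate 1 was the lowest library in each group. The mean was 1.55 ± 1.03 CPM in mutants and 8.76 ± 4.02 CPM in controls (SD, n = 3 each). The log2 fold change was -2.50 (SE 0.62), with an edgeR adjusted p of 0.0141. The call was lost without mutant replicate 2 (-2.56, adjusted p = 0.0506) and with the Y-linked covariate (-1.72, adjusted p = 0.146).

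Thbs4, the gene of the tendon matrix glycoprotein, lies on chromosome 13 from 92751590 to 92794818, minus strand. It measured 1.71, 2.59 and 2.68 CPM in mutant replicates 1, 2 and 3, against 3.59, 12.5 and 21.2 CPM in control replicates 1, 2 and 3. The mutants were close together and below every control, while the controls spread widely, with control replicate 1 near the mutants. The mean was 2.33 ± 0.537 CPM in mutants and 12.4 ± 8.83 CPM in controls (SD, n = 3 each). The log2 fold change was -2.42 (SE 0.59), with an edgeR adjusted p of 0.0133. Without control replicate 3 the change was -1.79 (adjusted p = 0.0364), and the call was lost with limma-voom (-2.28, adjusted p = 0.088) and with the Y-linked covariate (-1.45, adjusted p = 0.219).

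Htra3, the secreted protease gene, lies on chromosome 5 from 35652023 to 35679782, minus strand, and was the 1 member with higher values in mutants. It measured 28.7, 18.8 and 23.5 CPM in mutant replicates 1, 2 and 3, against 7.58, 17.3 and 17.1 CPM in control replicates 1, 2 and 3. Every mutant was above every control, as for 29.7% of tested genes, with control replicate 1 far below the other controls. The mean was 23.7 ± 4.97 CPM in mutants and 14.0 ± 5.55 CPM in controls (SD, n = 3 each). The log2 fold change of 0.76 (SE 0.32) missed the threshold, with an edgeR adjusted p of 0.0894. It passed by DESeq2 (0.76, adjusted p = 0.0264) and with the Y-linked covariate (1.5, adjusted p = 0.0181), and it was 0.29 without replicate 1 of both groups (adjusted p = 0.104).

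Set side by side, the 6 genes did not vary together from library to library. Relative to its own mean over the 6 libraries on the log2 scale, control replicate 1 was the highest library for Scx (1.51) and Egr2 (2.07). In the same library Thbs4 (-0.40) was below its mean, Tnmd (0.38) was below the other controls and Htra3 (-1.20) was at its lowest. Mutant replicate 1 was the highest mutant for Scx and Egr2 and the lowest for Tnmd and Thbs4. The profiles of Tnmd and Thbs4 differed by 0.655 (root mean square, log2 scale), those of Mkx and Htra3 by 0.659 and those of Scx and Egr2 by 0.692. Mkx and Htra3 were this close although their changes had opposite signs, so a small difference does not by itself mean a shared change. Scx and Tnmd differed by 1.55 and Tnmd and Htra3 by 1.93. These are descriptions over 6 libraries that share the genotype difference.

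**Figure D2:**
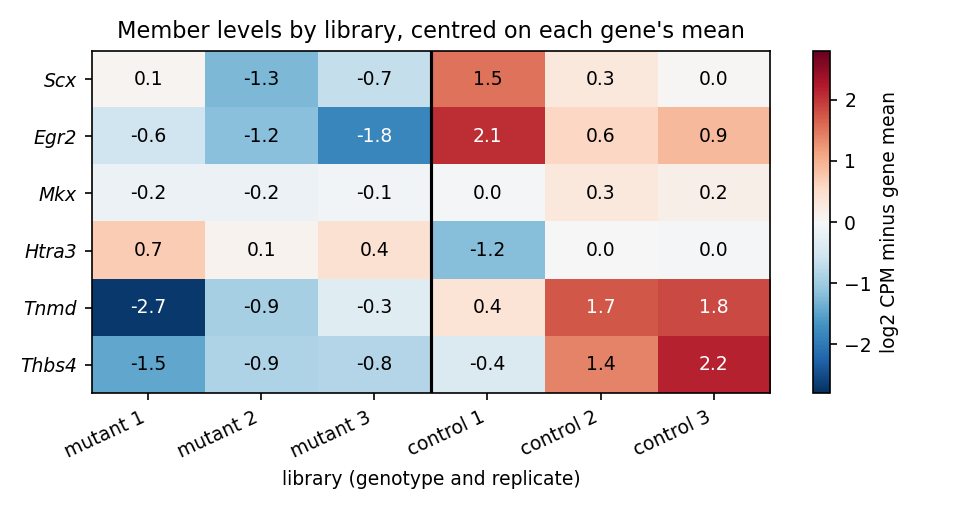
Log2 CPM of each gene (rows) in each library (columns, mutants left of the line and controls right), minus the mean of that gene over the 6 libraries; red is above and blue below the mean. Scx and Egr2 are highest in control replicate 1, where Htra3 is lowest (-1.20) and Tnmd and Thbs4 lie below the other controls.

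The genes with the nearest profiles among 13616 compared were picked by the same root mean square difference. Nearest to Tnmd were the sodium calcium exchanger gene Slc8a3 (0.206), the osteoblast transcription factor gene Sp7 (0.208) and the sphingomyelinase gene Smpd3 (0.239). Sp7 stood at 13.5, 48.3 and 63.1 CPM in mutant replicates 1, 2 and 3, against 97.2, 247 and 209 CPM in control replicates 1, 2 and 3, the same order of libraries as Tnmd but for control replicates 2 and 3. Its lower call (-2.15, SE 0.57, edgeR adjusted p = 0.0181) was lost without mutant replicate 2 (adjusted p = 0.054), without control replicate 2 (adjusted p = 0.0508) and with the Y-linked covariate (-1.37, adjusted p = 0.187). Nearest to Thbs4 were Rspo4 (0.261), Sgms2 (0.377) and Cgref1 (0.378), and nearest to Egr2 were Dusp9 (0.409), Cdh15 (0.423), a cadherin gene of muscle precursors, and the embryonic globin gene Hba-x (0.432). Scx was most like Rab3b (0.191), Chrnb2 (0.239) and Nnat (0.248), genes known from neurons. Mkx was nearest to Sec62 (0.0234), Serp1 (0.0258) and Asl (0.0313), and Htra3 to Fam189a2 (0.108), Parp3 (0.118) and Plekha2 (0.129).

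The summed bone markers other than Col1a1 moved with the same libraries as Tnmd and Thbs4. Of 12 osteoblast markers tested, 11 were lower and none higher in the mutant, against 7 lower without mutant replicate 2 or against a 1.5-fold change, and 5 lower and 1 higher with the Y-linked covariate. With 13 tested, 12 were lower without control replicate 1 and 13 without replicate 1 of both groups. Without Col1a1, which makes up most of the list's sum, the other 12 of the 13 markers summed to 483, 570 and 639 CPM in mutant replicates 1, 2 and 3, against 1156, 3858 and 3319 CPM in control replicates 1, 2 and 3. In these sums control replicate 1 was again the lowest control and mutant replicate 1 the lowest mutant. With Col1a1 included, the list summed to 5998, 4989 and 4909 CPM in mutant replicates 1, 2 and 3. The same sums were 3012, 10186 and 8459 CPM in control replicates 1, 2 and 3. Mutant replicate 1 was then the highest mutant, and the groups overlapped. Of 13 cartilage markers, 3 were lower and 10 did not pass, with sums of 440 to 485 CPM in mutants and 483 to 960 CPM in controls. The part of bone or cartilage cells in the lower Tnmd and Thbs4 was not tested.

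Compared per kilobase of exon, the levels of the members had a different order in the genotypes. In mutants the mean was 8.10 CPM per kb for Mkx, 5.33 for Htra3, 2.04 for Scx, 1.15 for Tnmd, 0.707 for Thbs4 and 0.286 for Egr2. In controls it was 9.89 CPM per kb for Mkx, 6.48 for Tnmd, 4.98 for Scx, 3.78 for Thbs4, 3.15 for Htra3 and 1.57 for Egr2. Mkx was above all other members in every mutant and every control, with its lowest control at 8.65 and the highest Tnmd control at 8.46 CPM per kb. In mutants Htra3 was also apart, at 4.23 to 6.47 CPM per kb against 1.22 to 3.08 for Scx, while Scx overlapped Tnmd and Tnmd overlapped Thbs4. In controls each of Tnmd, Scx, Thbs4, Htra3 and Egr2 overlapped its neighbour in the order.

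The relatives of the members are given by family. Among early growth response genes, Egr3 fell too, to 0.727, 0.999 and 0.745 CPM in mutant replicates 1, 2 and 3, against 16.4, 5.87 and 9.17 CPM in control replicates 1, 2 and 3 (-3.67, SE 0.42, edgeR adjusted p = 0.00068). Egr1, the relative that also acts in tendon, did not pass (-0.21, SE 0.39, edgeR adjusted p = 0.693), with 35.2 to 78.7 CPM in mutants and 34.1 to 80.2 CPM in controls. Of the genes for EGR co-repressors, Nab2 was lower (-0.42, SE 0.07, edgeR adjusted p = 0.00365) and Nab1 higher (0.44, SE 0.09, edgeR adjusted p = 0.0059).

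Thbs4 was the only 1 of 5 thrombospondin genes called lower. Thbs2, a thrombospondin of connective tissue, was higher (418 ± 30.4 CPM in mutants, 255 ± 89.8 CPM in controls, SD, n = 3 each) at an adjusted p near the threshold (0.71, SE 0.25, edgeR adjusted p = 0.0488), and the call was lost without any 1 of the mutants (adjusted p of 0.082, 0.133 and 0.101), without control replicate 3 (adjusted p = 0.0831) and with counts thinned to the smallest library total (adjusted p = 0.0502). Thbs1, Thbs3 and Comp did not pass, though Thbs1 (0.82, adjusted p = 0.0203) and Thbs3 (0.74, adjusted p = 0.0345) were called higher with the Y-linked covariate. Comp, a matrix protein of mature tendon and cartilage, was below 0.5 CPM in all libraries.

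Among HtrA protease genes, Htra1, like Htra3 a secreted family member, was called higher, with 63.9, 48.7 and 49.3 CPM in mutant replicates 1, 2 and 3 against 16.04, 25.9 and 27.8 CPM in control replicates 1, 2 and 3 (1.21, SE 0.21, edgeR adjusted p = 0.00371). Htra2, which encodes the mitochondrial member, was lower (-0.51, SE 0.09, edgeR adjusted p = 0.00426), and Htra4 did not pass. Of the BRICHOS domain genes, only Tnmd was called lower, and Itm2b, a widely expressed membrane protein gene, was higher (0.73, SE 0.08, edgeR adjusted p = 0.000532). The cartilage relative of Tnmd, chondromodulin (Lect1 in the files), did not pass (0.41, SE 0.24, edgeR adjusted p = 0.197).

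Of 6 tested bHLH genes, Scx included, 3 were lower and none higher, with a median log2 fold change of -1.15. The number lower was 1 without mutant replicate 2 or with the Y-linked covariate, 5 of 8 tested by DESeq2 and 0 against a 1.5-fold change. Tcf15, the somite gene nearest to Scx in the family, was at 0.763, 0.222 and 0.261 CPM in mutant replicates 1, 2 and 3, against 1.89, 2.03 and 1.27 CPM in control replicates 1, 2 and 3 (-2.05, SE 0.52, edgeR adjusted p = 0.0156). That call was lost without mutant replicate 2 (adjusted p = 0.0519) or mutant replicate 3 (adjusted p = 0.0552) and with the Y-linked covariate (adjusted p = 0.0713), and the change was -2.83 without mutant replicate 1. Of 7 TALE genes, Mkx included, 2 were lower and 2 higher. The Iroquois genes went both ways, lower as Irx1 (3.92 ± 1.34 CPM in mutants, 17.2 ± 5.62 CPM in controls, SD, n = 3 each; -2.13, SE 0.33, edgeR adjusted p = 0.00205), and higher as Irx4 (3.05, SE 0.75, edgeR adjusted p = 0.0135). The change of Irx4 was 2.07 without mutant replicate 1 and 3.72 without control replicate 3, and its call was lost with the Y-linked covariate (2.91, adjusted p = 0.114).

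**Figure D3:**
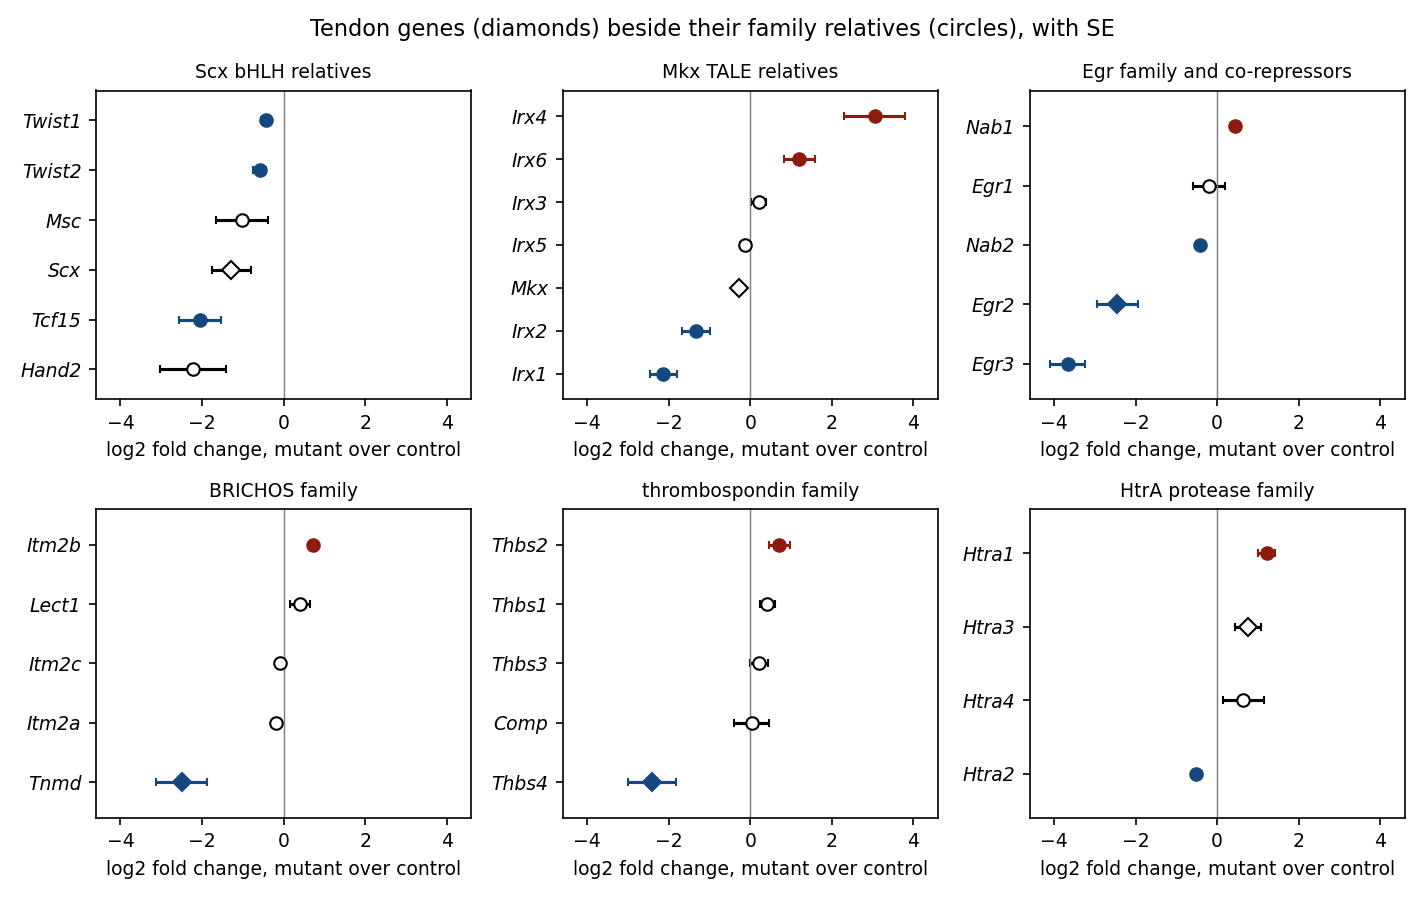
Log2 fold change of mutant over control (x axis) with SE (whiskers) for each member (diamonds) and its tested relatives (circles); blue is called lower, red called higher and white not called. Egr2 and Egr3 lie left of the other Egr genes, and Tnmd and Thbs4 stand alone at the left of their families. Htra3 lies between Htra4, not called, and Htra1, called higher.

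The wider tendon program did not change in 1 direction. Of 17 transcription factor genes of tendon and their partners, 5 were lower, 1 was higher and 11 did not pass, with a median log2 fold change of -0.29. Six2, a homeobox gene of tendon and palate mesenchyme, fell to 126, 142 and 169 CPM in mutant replicates 1, 2 and 3, against 341, 343 and 289 CPM in control replicates 1, 2 and 3 (-1.16, SE 0.12, edgeR adjusted p = 0.000546). Its cofactor gene Eya1 was lower (-0.52, SE 0.07, edgeR adjusted p = 0.0014) and Eya2 higher (0.77, SE 0.16, edgeR adjusted p = 0.00792, but 0.0591 with the Y-linked covariate). Tcf3, encoding an E protein that pairs with scleraxis, was slightly lower (-0.33, SE 0.08, edgeR adjusted p = 0.0107). The number lower was 9 without replicate 1 of both groups, 8 by DESeq2 and 2 against a 1.5-fold change.

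Genes of tendon matrix went both ways. Of 45 tested, 14 were higher, 5 were lower and 26 did not pass, with a median log2 fold change of 0.29, while 24.1% of all tested genes were called higher and 21.7% lower. Against a 1.5-fold change 2 were higher and 3 lower. The 5 that were lower were Tnmd, Thbs4, Col22a1, Plod2 and Prelp. Col22a1, a collagen of muscle and tendon junctions, was at 1.02, 3.13 and 5.04 CPM in mutant replicates 1, 2 and 3, against 30.0, 169 and 125 CPM in control replicates 1, 2 and 3 (-5.14, SE 0.79, edgeR adjusted p = 0.00207). Replicate 1 was again the lowest library of each group, as for Tnmd and Thbs4. Among those higher, Col14a1, a collagen on the surface of fibrils, was at 422, 428 and 441 CPM in mutants and 116, 92.4 and 123 CPM in controls (1.96, SE 0.11, edgeR adjusted p = 0.000167). Abi3bp (1.55, SE 0.11), the small proteoglycan gene Dcn (0.71, SE 0.12), the microfibril gene Fbn2 (0.95, SE 0.17), Fibin (0.62, SE 0.11) and the elastin gene Eln (0.99, SE 0.20) were higher too, with edgeR adjusted p from 0.000234 for Abi3bp to 0.00632 for Eln.

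The fibril collagens that form most of a tendon did not pass. Col1a1 was at 4735 ± 680 CPM in mutants and 4442 ± 2316 CPM in controls (0.09, SE 0.40, edgeR adjusted p = 0.866; SD, n = 3 each), with 1857 CPM in control replicate 1 and 6328 and 5140 CPM in the other controls. Without replicate 1 of both groups Col1a1 was called lower (-0.41, adjusted p = 0.0194), as was Col1a2 (-0.54, adjusted p = 0.00356, against -0.20, SE 0.31 and adjusted p = 0.634 with all libraries). Col1a2 was also called lower without control replicate 1 alone (-0.52, adjusted p = 0.00684), and Col1a1 was called higher with the Y-linked covariate (1.22, adjusted p = 0.0284). Leaving out control replicate 1 gave 10 matrix genes called lower, against 13 called higher. When replicate 1 was dropped from each group, calls rose in both directions, to 12 matrix genes lower against 20 higher. The number of matrix genes higher was 9 without mutant replicate 2 or control replicate 3, 19 with library size alone and 20 by DESeq2. With the Y-linked covariate 19 were higher and 3 lower.

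Of 31 genes of the TGF-beta, FGF and related signals that act on tendon cells, 7 were lower, 4 higher and 20 did not pass (median -0.10, also with the gene that had no mutant counts set at its bound, and 0.02 with limma-voom). With library size alone as the scale, 6 were lower and 6 higher, and without replicate 1 of both groups 11 were lower. The TGF-beta receptor genes went both ways, with Tgfbr2 higher (194 ± 14.0 CPM in mutants, 136 ± 4.38 CPM in controls, SD, n = 3 each; 0.51, SE 0.07, edgeR adjusted p = 0.00162) and Tgfbr1 lower (-0.56, SE 0.11, edgeR adjusted p = 0.00485). The ligand genes Tgfb2 (0.34, SE 0.13, edgeR adjusted p = 0.0662) and Tgfb3 (-0.02, SE 0.19, edgeR adjusted p = 0.95) did not pass. Tgfb2 was called higher with library size alone (adjusted p = 0.0319), by DESeq2 (adjusted p = 0.0446), with the Y-linked covariate (0.63, adjusted p = 0.00953) and without control replicate 2 (0.43, adjusted p = 0.0455), and Tgfb3 was called lower without replicate 1 of both groups (-0.32, adjusted p = 0.00987). Ctgf, a matricellular gene induced by TGF-beta, was higher (0.91, SE 0.16, edgeR adjusted p = 0.00326), as was Gdf6, a growth factor gene of joints and tendon (1.31, SE 0.20, edgeR adjusted p = 0.002).

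FGF signals induce Scx in the somites of chick and mouse. The ligand gene Fgf4 had 0 counts in the mutants together and 504 in the controls together, so it was at least 87-fold lower (floor of 3 counts for the 3 libraries of a group). Fgf8 was called lower too (-6.31, SE 1.88, edgeR adjusted p = 0.0287). It was at 8.70, 0.277 and 0.241 CPM in control replicates 1, 2 and 3 and at 0, 0.0740 and 0.0372 CPM in the mutants. The Fgf8 call was lost without any 1 of the mutants, with limma-voom and against a 1.5-fold change. Etv4, a transcription factor gene induced by FGF, was at 10.6, 9.43 and 10.7 CPM in mutant replicates 1, 2 and 3, against 62.6, 27.9 and 35.1 CPM in control replicates 1, 2 and 3 (-2.03, SE 0.29, edgeR adjusted p = 0.0016). Control replicate 1 was the highest, as for Scx and Egr2. The other FGF-induced genes of the list, Etv5 (-0.69, SE 0.31, edgeR adjusted p = 0.106), Dusp6 (-0.80, SE 0.32, edgeR adjusted p = 0.0753), Spry2 (-0.29, SE 0.33, edgeR adjusted p = 0.506) and Spry1 (0.03, SE 0.16, edgeR adjusted p = 0.894), did not pass. Of these, Etv5, Dusp6 and Spry2 were called lower with the Y-linked covariate (adjusted p of 0.00471, 0.0049 and 0.0106), Etv5 and Dusp6 without control replicate 2 (adjusted p of 0.0343 and 0.0284), Etv5 by DESeq2 (adjusted p = 0.0334) and Dusp6 without control replicate 1 (adjusted p = 0.0424). Spry1 was called higher without control replicate 1 (0.24, adjusted p = 0.0258), and the sign of Spry1 and Spry2 changed with 1 control left out. The receptor gene Fgfr2 was higher (0.39, SE 0.08, edgeR adjusted p = 0.00645).

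**Figure D4:**
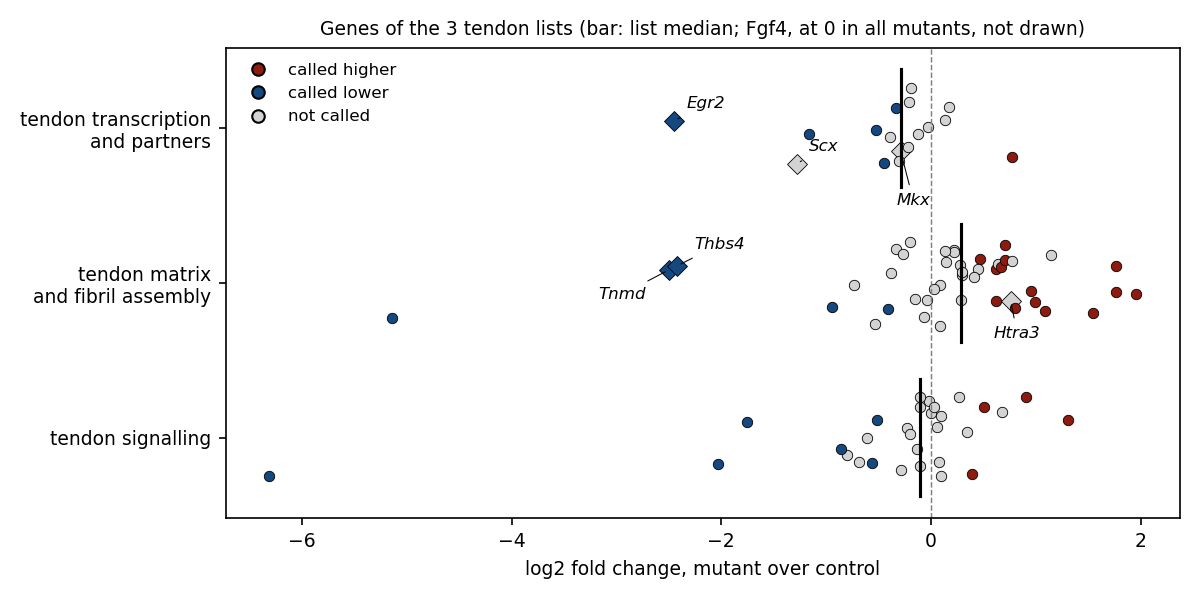
Log2 fold change of mutant over control (x axis) for the tested genes of the transcription, matrix and signalling lists (rows, vertical jitter only). Members are diamonds, and a bar marks the median of each list (-0.29, 0.29 and -0.10). Fgf4, called lower and at 0 in all mutants, is not drawn but is part of the signalling median. The called matrix genes lie mostly to the right of 0, with Tnmd and Thbs4 far to the left.

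The periodontal ligament and dental follicle, another ligament-forming tissue near the palate, showed no common direction. Of 9 markers, 2 were lower, 1 was higher and 6 did not pass. Postn, the main periodontal matrix gene, was at 1486 to 1894 CPM in mutants and 1567 to 1847 CPM in controls (-0.07, SE 0.12, edgeR adjusted p = 0.661). Epithelial markers were higher, 11 of 11, with a sum of 6126 to 6999 CPM in mutants and 1096 to 1828 CPM in controls. Endothelial markers did not pass, 0 of 8 called. The part of epithelial cells in the member results was not tested.

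**Figure D5:**
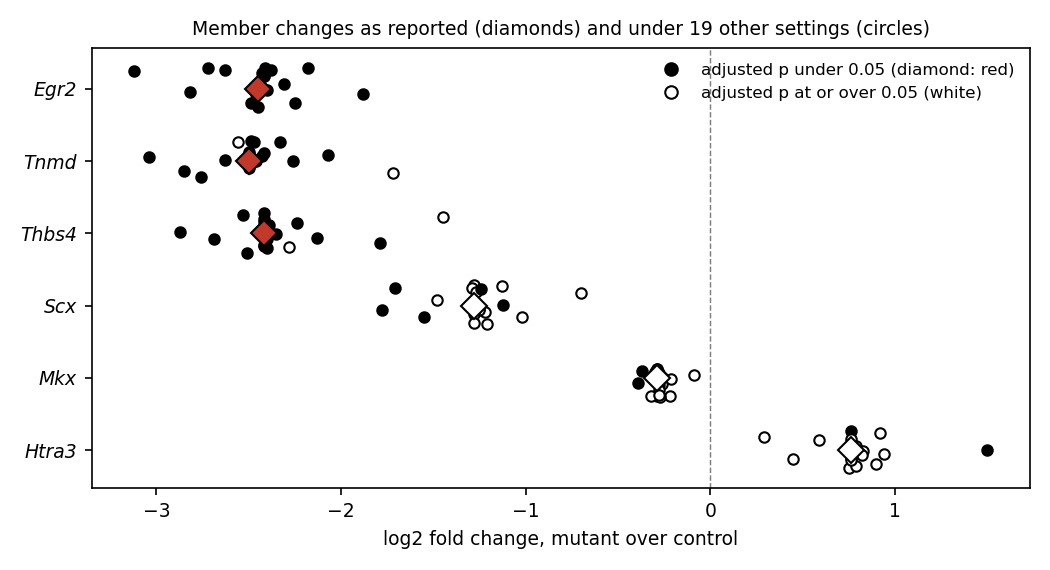
Log2 fold change of mutant over control (x axis) of each gene as reported (diamonds) and under 19 other settings (circles, vertical jitter only); filled marks had an adjusted p under 0.05 and white marks did not. Egr2 is filled throughout, Tnmd and Thbs4 each have 2 white circles, and no gene crosses 0.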

How the data were processed

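Each library has 1 deposited table of unnormalized counts by gene symbol. HISAT2, StringTie and the builds mm9 and mm10 are named per the submitters' processing notes, and HISAT2 also per the file headers of 4 libraries. The sources used here do not state the counter, its strand setting or the annotation. Groups and replicate numbers come from the titles. Counts were filtered with filterByExpr, scaled by TMM and tested with edgeR 4.0.16 in R 4.3.3 (quasi-likelihood F test, mutant against control, 2-sided, no covariate), with Benjamini-Hochberg adjustment over all 16604 tested genes and a threshold of 0.05. SE was taken as the size of the log2 fold change over the root of F. DESeq2 1.42.0 and limma 3.58.1 were alternatives. The fit was tested on simulated data. Levels per kilobase use merged exon lengths of GENCODE M21, whose symbols matched 93% of those in the files. Profile likeness used log2 CPM with a prior count of 2 and genes of average log2 CPM of at least 0. Bounds cover counting error only. The members, gene lists and naming rule were chosen with earlier results of these data known: members in full, tested relatives, up to 6 called genes a direction of each tendon list, and marker sums. Among marker genes, Sox10 and the 3 at 0 were named after their values were seen, as were the FGF-induced genes not called.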

Additional observations from a re-analysis of the deposited data

How the results depend on the processing

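Under 19 alternatives no member changed direction, and Egr2 was called in all 19. Over all genes 2472 were called against a 1.5-fold change, against 7606 without it, and 5780 to 9104 with libraries left out, the highest count being without replicate 1 of both groups. Of the 6 members, 3 were called as reported, 6 by DESeq2, 5 without replicate 1 of both groups, and 2 to 4 with 1 library left out; the cause was not tested. With the replicate number as a block, 7022 genes and 4 members were called, Scx being added (-1.24, adjusted p = 0.00987). Deviations of same-numbered libraries correlated at 0.0199 to 0.0824. Replicate 1 and replicate 2 of each group correlated best with the same number in the other group (0.0808 and 0.0824). Control replicate 3 correlated best with mutant replicate 2 (0.0478). As all these values were low and no label says what the numbers mark, they were not taken as a pairing, which is not thereby excluded. With the Y-linked covariate 5231 genes were called. Against a 1.5-fold change, 2 matrix genes were higher and 3 lower, 0 transcription genes were higher and 2 lower, and 1 signalling gene was higher and 2 lower. Of the genes named outside the members, Eya1, Eya2, Tcf3, Dcn, Fbn2, Fibin, Eln, Plod2, Prelp, Tgfbr1, Tgfbr2, Ctgf, Fgfr2, Thbs2, Htra2, Nab1, Nab2, Itm2b, Tcf15 and Sp7 were not called against a 1.5-fold change. Neither was Fgf8. Egr2 in mutants rested on 31 to 78 counts, and Tnmd in mutant replicate 1 on 26. The 78 and the 26 are both of mutant replicate 1, where 99.7% of low counts were even, and how many reads they stand for is not known. With the counts of every library halved, 3 members were called. That setting treated all libraries alike, so it cannot tell what the even counts of mutant replicate 1 stand for.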
